A study of Mus musculus with 26 samples.

Results

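Src, Fyn, Yes1 and Lyn encode Src family tyrosine kinases, and Prkaca, Prkacb, Prkar1a and Prkar2b encode catalytic and regulatory subunits of protein kinase A (PKA). These 8 genes were chosen by symbol, as kinases known to act on the channel protein pannexin 1, out of 21031 genes in the deposited normalised table and 57010 genes in the deposited counts. Transcripts were measured by RNA sequencing of mesenteric arteries, the small arteries that feed the gut, from male mice aged 8 weeks. The series holds 26 libraries in 8 groups: 3 wild-type and 3 global Panx1 knockout (KO) libraries, 3 Y198F controls (Y198F-/-) and 3 Y198F mutants (Y198F+/+), 4 S205A controls (S205A-/-) and 4 S205A mutants (S205A+/+), and 3 Y308F controls (Y308F-/-) and 3 Y308F mutants (Y308F+/+). In the labels' notation -/- stands for controls without the changed residue and +/+ for mice that carry it. The controls are described as littermates or wild type, no drug treatment is named, and the knockout and the changed residues are not described as restricted to any cell type, so each library mixes all cells of the vessel. Replicates are separate libraries of vascular trees. The design text gives 3 trees for each mutant genotype and no number for the controls, while both S205A groups hold 4 libraries, and all of these were used as labelled. The study asks how loss of the channel, or of one residue in it that can be phosphorylated, alters the vessel.

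Src family kinases sit at the inner face of the plasma membrane and phosphorylate tyrosines. They are held inactive by phosphorylation of their own tail, which the kinase Csk adds and phosphatases remove. PKA is a serine and threonine kinase whose catalytic subunits are kept silent by regulatory subunits until cyclic AMP binds these. In arteries PKA is known for relaxing smooth muscle, and Src family kinases take part in signalling from adhesion, growth factor, cytokine and adrenergic receptors. Pannexin 1 forms channels that release ATP, and the tyrosines Y198 and Y308 are known as Src family sites.

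The mutated residues show what the kinases would act on. All 3 codons lie in exon 4 of Panx1 on the minus strand of chromosome 9 (GRCm39), in a reference transcript of 426 codons. Each reference window below is printed 5′ to 3′ in the direction of transcription, with the codon of the residue in capitals and 6 codons on either side.
Y198 (chr9:14919246-14919284): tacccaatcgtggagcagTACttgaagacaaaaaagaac
S205 (chr9:14919225-14919263): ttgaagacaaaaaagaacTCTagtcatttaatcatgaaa
Y308 (chr9:14918916-14918954): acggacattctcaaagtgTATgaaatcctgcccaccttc
Y198 and S205 are 7 residues apart, so their windows overlap. Counts per gene cannot show the changed bases, and the labels were checked only through Panx1 itself. Panx1 had 61 to 96 counts in the 3 wild-type libraries and 11 to 27 in the 3 KO libraries, without overlap. Panx1 in the library labelled S205A control 1 was at 16 counts, or 0.830 CPM (counts scaled by the size of the library), which lies inside the KO range of 0.582 to 1.36 CPM. S205A control 3, at 28 counts or 1.55 CPM, lay just above that range.

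Libraries held 14.9 to 23.6 M counts (M for mega), and all 8 genes passed the filter on low counts in each comparison. The libraries fell into 2 sets, which split both S205A groups and separate all Y198F mutants from their labelled controls. The first set, named the 22 series after the digits that open the number in the library names, comprised 9 libraries, namely all Y198F mutants, S205A controls 1, 2 and 3, and S205A mutants 2, 3 and 4. Their scores on the first principal component ran from 40.3 to 87.5, against -49.0 to -14.6 in the other 17 libraries. The sources used here do not say what this number means. All 6 smooth muscle and all 6 endothelial marker genes were counted in every library. S205A control 1 stood apart by its summed endothelial markers, 1119 CPM against 2987 to 9465 CPM in the other 25 libraries, and had the highest smooth muscle markers of all libraries, 41225 CPM. In such mixed tissue, fewer cells of a type and less RNA per cell cannot be told apart.

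Per length of merged exons, PKA transcripts far outnumbered those of the Src family. The median level over 26 libraries was 98.1 CPM per kilobase for Prkar1a, the type I-alpha regulatory subunit, 49.8 for Prkaca and 30.7 for Prkacb, the catalytic subunits. Fyn followed at 6.12 CPM per kilobase, then Src at 4.16, Lyn at 2.03, Yes1 at 1.79 and Prkar2b, the type II-beta regulatory subunit, at 1.76. Prkar1a never overlapped Prkaca, with a minimum of 79.0 against a maximum of 61.2 CPM per kilobase, and Prkacb never overlapped Fyn, with a minimum of 20.3 against a maximum of 10.8. Prkaca and Prkacb overlapped across libraries, but within each library Prkaca made up at least 55.0% of the summed level per length of the pair. The ranges of Fyn and Src overlapped, and so did those of Lyn, Yes1 and Prkar2b, so these neighbours are not ordered beyond their spread.

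**Figure D1:**
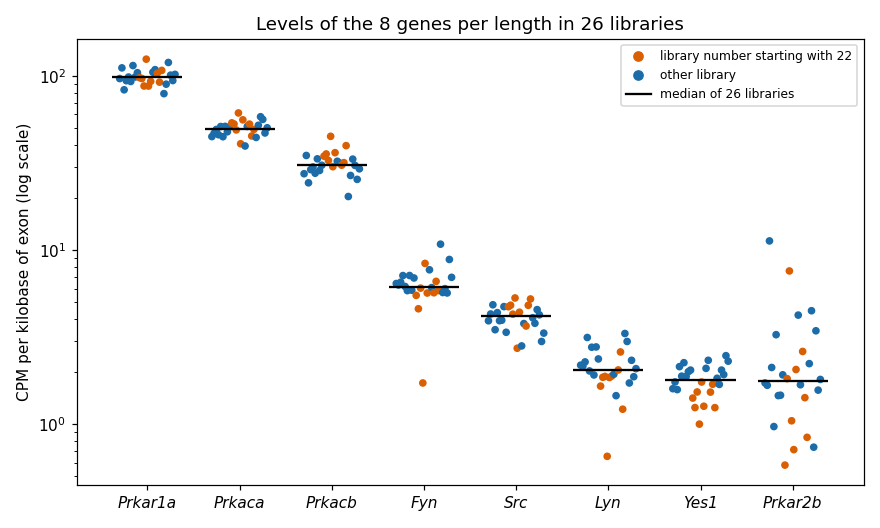
Level of each of the 8 genes in 26 libraries, as CPM per kilobase of merged exon on a log axis, with 1 point per library coloured by library number and a bar at the median. Prkar1a, Prkaca and Prkacb lie above the other 5 genes in every library, and Prkar2b of wild-type library 3, at 11.3, is the highest value among those 5.

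By group mean, the gene with the largest share was the same in all 8 groups. Shares were taken among the 8 genes only. Of the level per length of Prkaca and Prkacb, Prkaca made up from 57.7% ± 2.32 (SD, n = 4) in the S205A controls to 66.1% ± 2.47 (SD, n = 3) in the Y308F controls. Of the level of Prkar1a and Prkar2b, Prkar1a made up between 94.9% ± 5.95 (SD, n = 3) in wild type and 98.5% ± 0.277 (SD, n = 3) in the Y198F controls. Prkar2a, a PKA subunit gene outside the 8, was left out of these shares. It measured 79.9 ± 11.5 CPM (SD, n = 3) in wild type, against 27.4 ± 31.1 CPM (SD, n = 3) for Prkar2b. Among the 4 Src family genes, Fyn had the largest mean share in every group, from 40.7% ± 3.68 (SD, n = 3) in Y198F to 47.4% ± 7.31 (SD, n = 3) in Y308F. By library this held in 24 of 26. In S205A control 1, Src made up 61.1% and Fyn 19.8%, which left the S205A controls with a Fyn share of 43.2% ± 16.6 (SD, n = 4). In Y198F mutant 2, Src made up 38.5% and Fyn 36.7%.

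Variation over the 26 libraries was small for 2 genes and very large for 1. The coefficient of variation was 10.3% for Prkaca and 10.9% for Prkar1a, at percentiles 6.73 and 8.71 among the 18715 genes that passed the filter over all libraries. It was 15.8% for Prkacb, 17.1% for Src, 21.0% for Yes1, 24.7% for Fyn and 27.8% for Lyn. Prkar2b reached 93.9%, at percentile 90.3, with a ratio of 19.4 between its highest library, wild-type 3 at 63.3 CPM, and its lowest, Y198F 1 at 3.26 CPM. Fyn spanned a ratio of 6.27 and Lyn a ratio of 5.08, and both had their lowest value in S205A control 1 and their highest in Y308F control 1.

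Loss of pannexin 1 was accompanied by no change of any of the 8 genes past the threshold. Yes1, a broadly expressed Src family kinase, came nearest. It measured 21.7, 23.7 and 21.4 CPM in wild type and 29.1, 25.6 and 30.6 CPM in KO, so every KO library lay above every wild-type library. The difference was 0.37 on the log2 scale (SE 0.12, 95% interval 0.10 to 0.64), with an adjusted p of 0.347 by edgeR's quasi-likelihood test with Benjamini-Hochberg adjustment (unadjusted 0.0120). Yes1 was the only one of the 8 whose groups did not overlap, while 18.8% of the 16193 genes tested showed such separation. A two-sided exact permutation test gave p = 0.1, below which 3 against 3 libraries cannot go. In other controls outside the 22 series Yes1 measured 25.5 to 27.8 CPM (Y198F), 23.0 to 27.8 CPM (Y308F) and 28.4 CPM (S205A control 4). These values overlap those of both KO and wild type. edgeR called 0 of the 8 genes, against 0.0309% of all genes, and 1 of 8 had an unadjusted p under 0.05, against 11.2% of all genes. DESeq2 and limma voom also called 0 of the 8, against 0.904% and 0.0618% of all genes. Panx1 itself differed by -2.17 (SE 0.39) and was not called by edgeR (adjusted p = 0.250) or limma voom (adjusted p = 0.156). DESeq2 called it (adjusted p = 0.00071). A missing call in this comparison therefore does not show that a gene was unchanged.

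None of the remaining Src family genes or PKA genes passed the threshold between KO and wild type. The log2 differences were -0.13 (SE 0.14) for Src, 0.014 (SE 0.10) for Fyn and 0.28 (SE 0.19, 95% interval -0.14 to 0.71) for Lyn, whose product is best known from blood cells. For Prkaca, Prkacb and Prkar1a they lay between -0.0071 and 0.030, and the 95% interval of Prkar1a ran from -0.33 to 0.32. Prkar2b measured 9.67, 9.37 and 63.3 CPM in wild type and 11.9, 5.43 and 18.3 CPM in KO. Only wild-type library 3 was high, and the groups overlapped. The fitted difference was -1.19 (SE 1.02, adjusted p = 0.723 by edgeR) and turned to 0.34 without that library. Wild-type library 3 also had 2034 CPM of summed adipocyte markers, against 326 and 394 CPM in the other wild-type libraries and 106 to 530 CPM in KO. None of the 6 adipocyte markers was at 0 in any library, and their part in the Prkar2b difference was not tested.

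In the Y198F comparison Yes1 was the only one of the 8 genes past the threshold, and it was lower in the mutants. Its level was 25.5, 27.2 and 27.8 CPM in the controls and 19.2, 16.9 and 20.8 CPM in the mutants. All mutant libraries lay below all controls. The log2 difference was -0.51 (SE 0.13, 95% interval -0.79 to -0.22), with an adjusted p of 0.0223 by edgeR's quasi-likelihood test. This 1 of 8 genes compares with 15% of the 16050 genes tested, 9.55% higher and 5.48% lower in the mutants. With all 8 groups in one edgeR fit and no series term the difference was -0.50, and the adjusted p rose to 0.153.

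All 3 Y198F mutants belong to the 22 series and all 3 of their labelled controls do not, so in this comparison genotype and series cannot be told apart. The S205A controls of the same series had Yes1 at 13.6, 23.7 and 17.2 CPM, a range that contains all Y198F values. Against those 3 libraries the Yes1 difference was 0.058, and it was 0.15 when all 8 groups were fitted jointly with a series term, both with an adjusted p of 1.00 by edgeR. Leaving out each library in turn gave -0.57 to -0.43. The adjusted p rose to 0.0622 without Y198F control 2, 0.106 without Y198F control 3 and 0.0714 without Y198F mutant 2.

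None of the other Src family genes passed the threshold in this comparison. Fyn, a kinase with roles in adhesion and immune receptor signalling, measured 82.3, 67.8 and 79.7 CPM in controls and 63.3, 53.0 and 69.7 CPM in mutants, and the groups overlapped. Its log2 difference was -0.31 (SE 0.12, unadjusted p = 0.0259, adjusted p = 0.112 by edgeR). Lyn measured 9.13, 13.2 and 11.3 CPM in controls and 7.88, 8.85 and 8.96 CPM in mutants, with a log2 difference of -0.39 (SE 0.20, adjusted p = 0.214 by edgeR). Src, the founding member of the family, differed by 0.19 (SE 0.14). Against the S205A controls of the 22 series the differences were 0.028 for Fyn, 0.29 for Lyn and 0.15 for Src.

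Differences in the PKA subunits between Y198F and its controls did not pass the threshold. Prkar1a measured 1117, 961 and 1017 CPM in controls and 952, 942 and 853 CPM in mutants. These groups did not overlap, and the log2 difference was -0.18 (SE 0.12, adjusted p = 0.366 by edgeR). Counting Yes1 and Lyn, the groups of 3 of the 8 genes did not overlap, against 34.2% of all genes tested. Prkaca differed by 0.048 (SE 0.10) and Prkacb by 0.14 (SE 0.11). Prkar2b was 8.18, 8.22 and 10.8 CPM in controls and 3.26, 10.2 and 42.5 CPM in mutants. Only Y198F mutant 3 was high, and the log2 difference of 1.04 (SE 0.99) became -0.42 without it. That library had 1493 CPM of adipocyte markers, against 143 and 355 CPM in the other mutants and 214 to 310 CPM in the controls; their part was not tested.

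**Figure D2:**
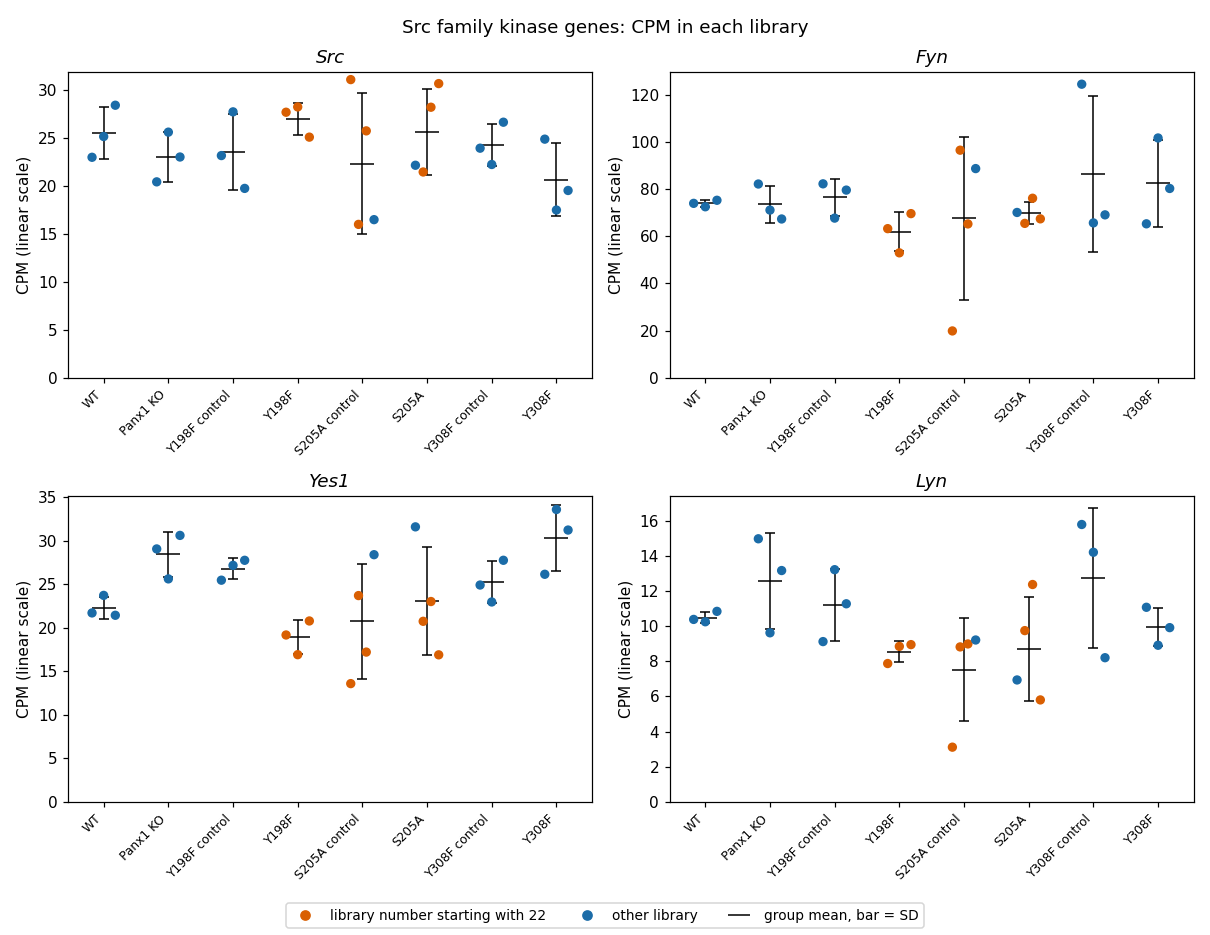
CPM of Src, Fyn, Yes1 and Lyn in each library on linear axes from 0, with 1 point per library by group, the group mean and bars of 1 SD, coloured by library number. Yes1 is 16.9 to 20.8 in the Y198F mutants and 25.5 to 27.8 in their controls, while S205A control 1 is the lowest library for Fyn (19.9), Yes1 (13.6) and Lyn (3.11).

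In the S205A line no gene was past the threshold with edgeR, and several of the 8 genes spread more widely in the controls than in the mutants. The SD was 34.5 against 4.65 CPM for Fyn and 30.6 against 9.33 CPM for Prkaca. For Yes1 (6.61 and 6.23 CPM) and Lyn (2.95 CPM in both) it was alike. edgeR called 0% of 15709 genes and 0 of the 8. At an unadjusted p under 0.05 there were 451 genes, 2.87%, and again 0 of the 8. DESeq2 called 47 genes, 0.314%, and limma voom 0, none of them among the 8. No gene of the 8 had groups that did not overlap, against 1.81% of all genes. The differences ran from -0.30 for Prkar2b (SE 0.55) to 0.21 for Lyn (SE 0.37).

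Fyn showed how much a single control library weighed in that line. It measured 19.9, 96.6, 65.3 and 88.8 CPM in the controls and 70.2, 65.5, 76.2 and 67.4 CPM in the mutants. S205A control 1 was the lowest and control 2 the highest, and the mutants lay between them. The log2 difference was 0.045 (SE 0.39), -0.26 without control 1 and 0.26 without control 2. Endothelial markers followed the same order in these controls, with 1119, 9465, 4449 and 5207 CPM, against 4222 to 5387 CPM in the mutants; none of the 6 was at 0, and their part was not tested. Summed fibroblast markers were 722 to 1074 CPM in the S205A controls and 1150 to 3630 CPM in the mutants, without overlap; edgeR called 0 of these 4 genes, 4 had an unadjusted p under 0.05 and DESeq2 called 1. Their part in the values of the 8 genes was not tested. Lyn measured 3.11 CPM in S205A control 1 and 8.82 to 9.22 CPM in the other 3 controls, and its difference of 0.21 became -0.047 without that library. Prkacb measured 406, 271, 327 and 292 CPM in the controls and 285, 277, 286 and 359 CPM in the mutants, a difference of -0.10 (SE 0.16).

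The Y308F comparison likewise called 0% of 16037 genes with edgeR and 0 of the 8, with 706 genes, 4.4%, at an unadjusted p under 0.05 and 0 of the 8. DESeq2 and limma voom called 0 genes. Yes1 was 24.9, 23.0 and 27.8 CPM in the controls and 26.2, 33.6 and 31.2 CPM in the mutants, a log2 difference of 0.28 (SE 0.14, 95% interval -0.039 to 0.59, adjusted p = 0.940 by edgeR). The groups overlapped in 1 pair of libraries, and none of the 8 genes was fully separated, against 10.7% of all genes. Lyn differed by -0.35 (SE 0.25) and Src by -0.22 (SE 0.16). Fyn was 125, 65.7 and 69.1 CPM in the controls and 65.3, 102 and 80.3 CPM in the mutants, and its difference of -0.060 became 0.31 without Y308F control 1. That control had 9154 CPM of endothelial markers, against 4001 and 4573 CPM in the other controls. The PKA subunits differed by -0.12 to 0.10, with intervals such as -0.32 to 0.32 for Prkaca.

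**Figure D3:**
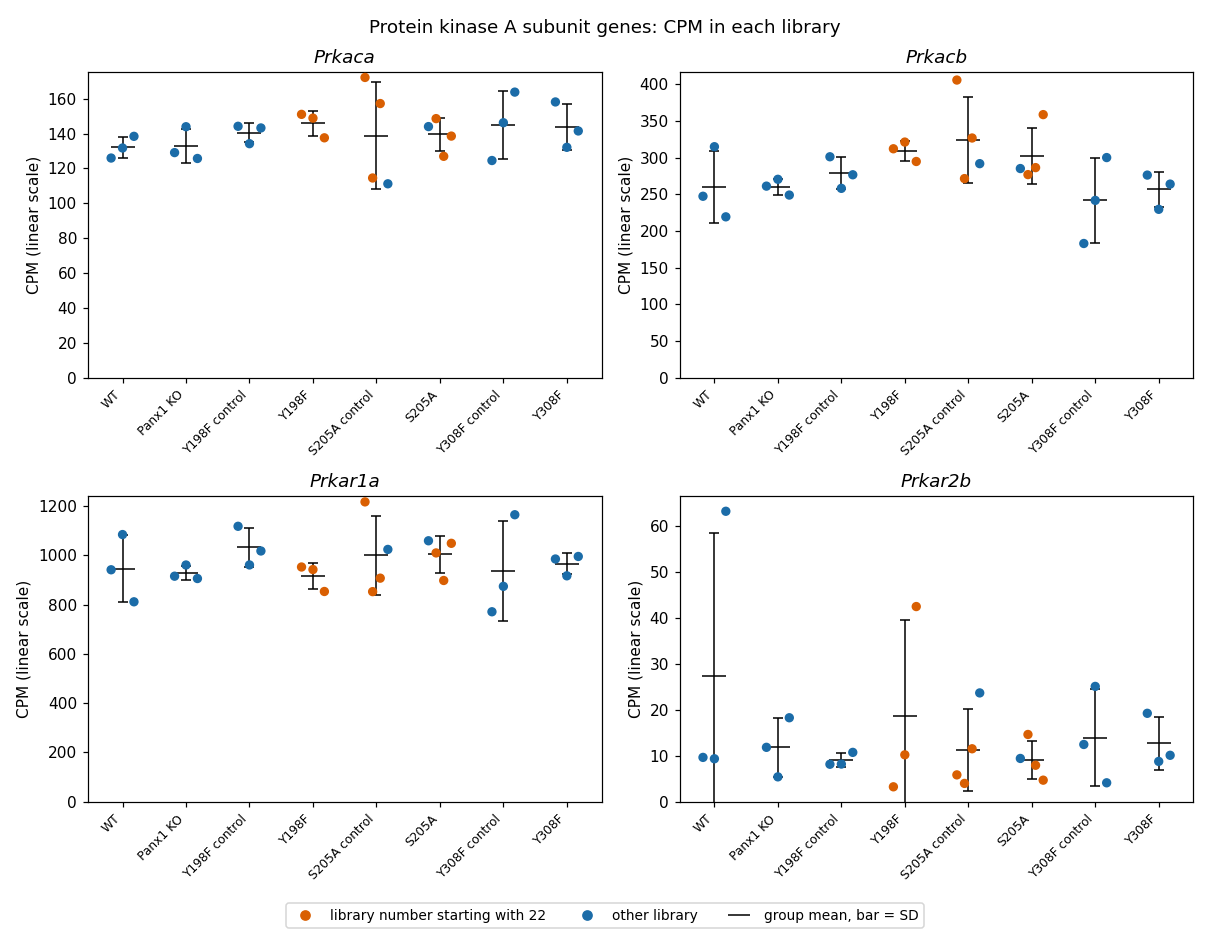
CPM of Prkaca, Prkacb, Prkar1a and Prkar2b in each library on linear axes from 0, with 1 point per library by group, the group mean and bars of 1 SD, coloured by library number. Prkar2b is high in wild-type library 3 (63.3) and Y198F mutant 3 (42.5), while the groups of Prkaca overlap in all 4 comparisons.

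**Figure D4:**
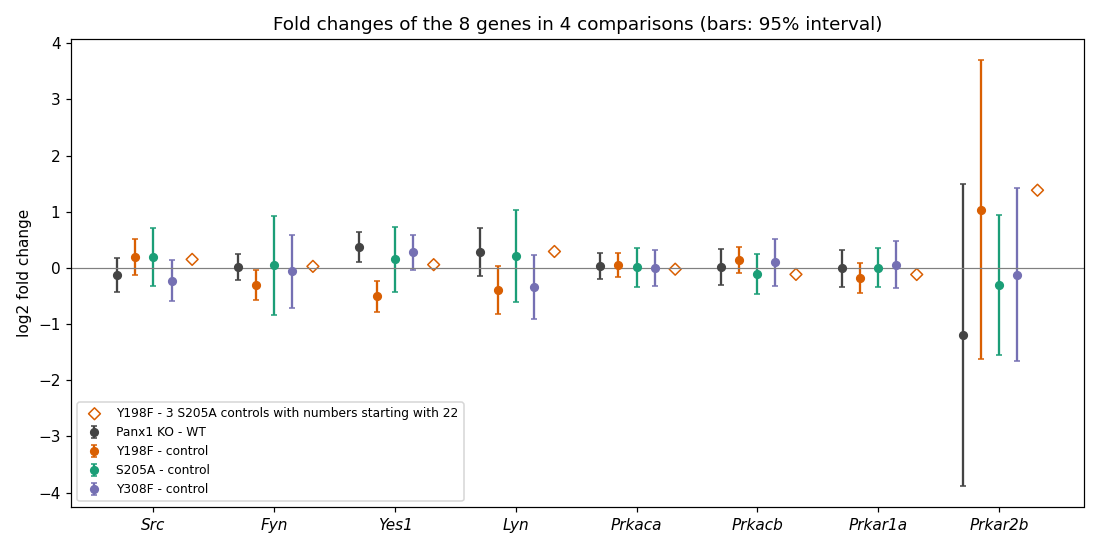
Log2 difference between mutants and controls for the 8 genes in the 4 comparisons, with 95% intervals from edgeR's quasi-likelihood fit, and open diamonds for Y198F against the 3 S205A controls of the 22 series. The Yes1 interval lies below 0 in Y198F (-0.79 to -0.22) while its open diamond is at 0.058, and the widest intervals are those of Prkar2b.

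Over the 8 genes the median log2 difference was 0.016 in KO, -0.065 in Y198F, 0.026 in S205A and -0.029 in Y308F. Over all genes tested it was 0.0052, -0.0028, -0.013 and -0.025 in the same order.

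The effect on Yes1 was compared directly between mutations, with an interaction in one edgeR fit of the 4 groups of each pair. The KO difference of Yes1 exceeded the Y198F difference by 0.88 (SE 0.17, adjusted p = 0.00425 by edgeR), a test in which 11.6% of 17347 genes passed. The Y198F difference was below the Y308F difference by 0.79, that is -0.79 (SE 0.18, adjusted p = 0.0230 by edgeR), where 5.7% of 17190 genes passed. With all 8 groups in the fit the adjusted p rose to 0.110 and 0.174. With the series as a further term the values were 0.21 and -0.12, both with an adjusted p of 1.00 by edgeR. None of the other 7 genes passed in any of the 6 pairs. The other pairs called 0.00562% (KO against S205A), 0.0116% (KO against Y308F), 0% (Y198F against S205A) and 0% (S205A against Y308F) of all genes, and none of the 8.

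Between the library series themselves Yes1 was also the only gene of the 8 past the threshold. In a fit with group and series as terms, in which only the S205A line holds both series within a group, Yes1 was lower in the 22 series by 0.64 on the log2 scale, that is -0.64 (SE 0.15, adjusted p = 0.00649 by edgeR). This compares with 11.7% of 18715 genes. Within the controls of that line Yes1 was 13.6, 23.7 and 17.2 CPM in the 22 series and 28.4 CPM outside it, and within the mutants 20.8, 23.0 and 16.9 CPM against 31.6 CPM. The contrast therefore rests on 2 libraries outside the series, S205A control 4 and S205A mutant 1, and the adjusted p was 0.163 without the former and 0.0817 without the latter. Src was higher in the 22 series by 0.41 (SE 0.20, adjusted p = 0.189 by edgeR). A joint edgeR test of any difference among the 8 groups, with series as a term, called 0.0427% of 18715 genes and none of the 8, whose adjusted p ran from 0.797 for Yes1 to 1.00 for Fyn.

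Genes that set the activity of these kinases were read from the same fits. Counts at an unadjusted p under 0.05 are to be read against the shares of all genes at that p, which were 11.2% in KO, 29.1% in Y198F, 2.87% in S205A and 4.4% in Y308F. For adjusted p in Y198F, the shares of all genes called were 15% with edgeR, 14.3% with DESeq2 and 18.6% with limma voom. Of the 10 Src regulators tested, which include Csk and tyrosine phosphatases, edgeR called 0 in each of the 4 comparisons, and 0, 2, 0 and 1 had an unadjusted p under 0.05 in KO, Y198F, S205A and Y308F. The 2 of 10 in Y198F is below the share of all genes. Other Src family genes and relatives, with 4 or 5 tested, had 0 calls and 0 at an unadjusted p under 0.05 in each comparison. Their summed level was 14.6 to 26.2 CPM. The other 3 PKA subunits also had 0 calls and 0 at that p. DESeq2 and limma voom called none in these 3 lists.

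Anchoring proteins, which tie PKA to sites in the cell, had 0 calls by edgeR among the 10 or 11 tested in each comparison, with 1, 3, 0 and 1 at an unadjusted p under 0.05 in the same order. The 3 of 11 in Y198F is near the 29.1% of all genes. DESeq2 and limma voom each called 1 anchor in Y198F, Akap12, which differed by -0.47 (SE 0.16, adjusted p = 0.0706 by edgeR). Caspases, proteases that cut the channel open in dying cells, also act on pannexin 1, and none of them is among the 8 genes. As a list, 5 caspase genes were tested, and edgeR, DESeq2 and limma voom called 0 in each comparison, with 0, 1, 0 and 0 at an unadjusted p under 0.05. Their summed level was 54.4 to 119 CPM.

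In the cyclic AMP pathway edgeR made calls in Y198F only, the comparison that held 2411 of its calls over all genes, against 5, 0 and 0 in KO, S205A and Y308F. Of 2 PKA inhibitor genes tested, Pkig, which encodes a peptide that blocks the free catalytic subunit, was higher. It measured 61.6, 66.2 and 60.0 CPM in the Y198F controls and 107, 87.5 and 90.5 CPM in the mutants, without overlap, a log2 difference of 0.59 (SE 0.11, adjusted p = 0.00443 by edgeR). Of 12 genes that make or break down cyclic AMP, 2 were higher and 0 lower with edgeR, against 15% of all genes called in either direction. These were the adenylyl cyclases Adcy4, by 0.41 (SE 0.11, adjusted p = 0.0266), and Adcy5, by 0.50 (SE 0.13, adjusted p = 0.0235). DESeq2 called 3 of the 12, against 14.3% of all genes, and limma voom 4, against 18.6%. The further genes, named after their values were seen, were the phosphodiesterase Pde4a with both tools, at 0.73 (adjusted p = 0.0646 by edgeR), and the cyclase Adcy3 with limma voom, at 0.36 (adjusted p = 0.0544 by edgeR). Among 7 partners of the channel in the vessel wall, Panx1 itself left out, 1 was called by edgeR and by DESeq2. This was the tumour necrosis factor receptor Tnfrsf1a, higher by 0.53 (SE 0.10, adjusted p = 0.00611). Limma voom called 2 of the 7, the second being the kinase Ptk2b, at 0.45 (adjusted p = 0.0902 by edgeR), also named after its values were seen.

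The 4 genes called by edgeR, Pkig, Adcy4, Adcy5 and Tnfrsf1a, had the same confounding with series as Yes1. The S205A controls of the 22 series had Pkig at 102, 90.4 and 110 CPM and the fourth S205A control at 65.0 CPM. Against the 3 series-matched controls the log2 differences were -0.088 for Pkig, -0.10 for Adcy4, -0.28 for Adcy5 and 0.023 for Tnfrsf1a, all with an adjusted p of 1.00 by edgeR. When each of the 6 Y198F libraries was left out in turn, Pkig and Tnfrsf1a stayed past the threshold in 6 fits and Adcy4 and Adcy5 in 2 each. Outside Y198F, edgeR called 0 PKA inhibitors, with 1, 0 and 0 at an unadjusted p under 0.05 in KO, S205A and Y308F. For cyclic AMP genes these counts were 0, 1 and 1, and for channel partners without Panx1 they were 1, 0 and 1.

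In KO the inhibitor was again Pkig, here with values below those of wild type. Pkig and Tnfrsf1a in KO and Akap12 in Y198F were named after their values were seen. Pkig measured 86.6, 92.7 and 92.6 CPM in wild type and 66.0, 67.4 and 64.1 CPM in KO. The groups did not overlap, and the log2 difference was -0.44 (SE 0.090, unadjusted p = 0.00080, adjusted p = 0.281 by edgeR). DESeq2 called it, with an adjusted p of 0.0380, where it called 0.904% of all genes, and limma voom did not (adjusted p = 0.226). No library of this comparison belongs to the 22 series. Other controls outside that series had Pkig at 60.0 to 66.2 CPM (Y198F), 65.0 CPM (S205A control 4) and 69.9 to 81.3 CPM (Y308F). The KO values lay within the range of these controls and the wild-type values above it. Differences between controls of the lines were not tested. The partner at an unadjusted p under 0.05 in KO was Tnfrsf1a, at -0.33 (SE 0.10, adjusted p = 0.347 by edgeR). DESeq2 called none of the 7 partners in KO.

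Few marker genes of the cell types in a vessel passed in the Y198F comparison, 1 of 6 each for smooth muscle and endothelium with edgeR, near the 15% of all genes called. DESeq2 called 2 of 6 in both lists, and limma voom 2 and 1. Lmod1 of the 6 smooth muscle markers was lower by 0.48, at -0.48 (SE 0.11, adjusted p = 0.0161 by edgeR), and Tie1 of the 6 endothelial markers was higher by 0.39 (SE 0.11, adjusted p = 0.0344 by edgeR). The summed smooth muscle markers were 24487 to 28870 CPM in Y198F controls and 22890 to 31125 CPM in mutants, and the summed endothelial markers 3632 to 4635 and 4765 to 5174 CPM. Against the S205A controls of the 22 series the differences were -0.32 for Lmod1 and -0.088 for Tie1, and with each library left out Lmod1 stayed past the threshold in 4 of 6 fits and Tie1 in 1. The 4 fibroblast markers summed to 1740 to 2229 CPM in the controls and 1085 to 1763 CPM in the mutants, with 0 called by edgeR and 3 by DESeq2. All of these markers were above 0 in these libraries. Their part in the Yes1 and cyclic AMP results was not tested.

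Across libraries, 3 of the 8 genes followed the level of a cell type in both series. Because the series form separate clusters, each of 8 genes was correlated with each of 6 marker sums within the 17 and within the 9 libraries separately, 96 correlations in all, on log2 CPM. A pair counted when both Pearson's r and Spearman's rho had an adjusted p under 0.05, which 10 of the 96 did. The values of one library share its total, so a high level of one cell type lowers the others in CPM.

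Prkar2b, a regulatory subunit abundant in fat, followed the adipocyte markers. Pearson's r was 0.925 (adjusted permutation p = 0.00096) and rho 0.841 (adjusted permutation p = 0.00672) in the 17 libraries, and 0.859 (adjusted exact permutation p = 0.0274) and 0.933 (adjusted exact permutation p = 0.0180) in the 9. Without the 2 libraries farthest from the median marker level, r was 0.854 and 0.911. Prkacb followed the smooth muscle markers with r = 0.781 and rho = 0.708 in the 17 libraries (adjusted permutation p = 0.00800 and 0.0268), and 0.890 and 0.883 in the 9 (adjusted exact permutation p = 0.0132 and 0.0268). Without the 2 farthest libraries its r was 0.798 and 0.708. Prkar1a did so with r = 0.784 and rho = 0.735 in the 17 (adjusted permutation p = 0.00800 and 0.0202), and 0.899 and 0.850 in the 9 (adjusted exact permutation p = 0.00900 and 0.0486). Its r without the 2 farthest was 0.802 and 0.746.

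Several relations met that rule in only one of the series, and the difference between series was not tested. Yes1 ran against the smooth muscle markers in the 9 libraries of the 22 series, with r = -0.928 and rho = -0.950 (adjusted exact permutation p = 0.00804 and 0.0115) and r = -0.801 without the 2 farthest libraries, while in the 17 others r was -0.197. Prkacb ran against the endothelial markers in the 22 series, with r = -0.859 and rho = -0.900 (adjusted exact permutation p = 0.00804 and 0.0268). In the 17 others its r was -0.322 and its rho 0.186, and r was 0.685 without the 2 farthest libraries, in the opposite direction. In the 17 libraries Lyn followed leukocyte markers with r = 0.697 and rho = 0.730 (adjusted permutation p = 0.0160 and 0.0202). In the 9 its r was 0.720 and its rho 0.767 (adjusted exact permutation p = 0.0495 and 0.128), and r was 0.350 without the 2 farthest. Prkar1a ran against the leukocyte markers in the 17 with r = -0.743 and rho = -0.784 (adjusted permutation p = 0.00900 and 0.0115), while in the 9 its r was -0.507. The leukocyte sum was low everywhere, 6.78 to 84.8 CPM over 7 genes, and 5 libraries had 1 of the 7 at 0. Fyn had r = 0.798 with the endothelial markers in the 17 libraries and 0.957 in the 9, but rho was 0.534 and 0.50. Without Y308F control 1 and Y308F mutant 2 its r fell to 0.340, and without S205A controls 1 and 2 to -0.136, so the size of r for Fyn rests on those pairs of libraries. Without Y308F control 1 alone r was 0.617 in the 17 libraries, and without S205A control 1 alone it was 0.737 in the 9. With group means removed and all libraries kept it was 0.831 and 0.969.

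**Figure D5:**
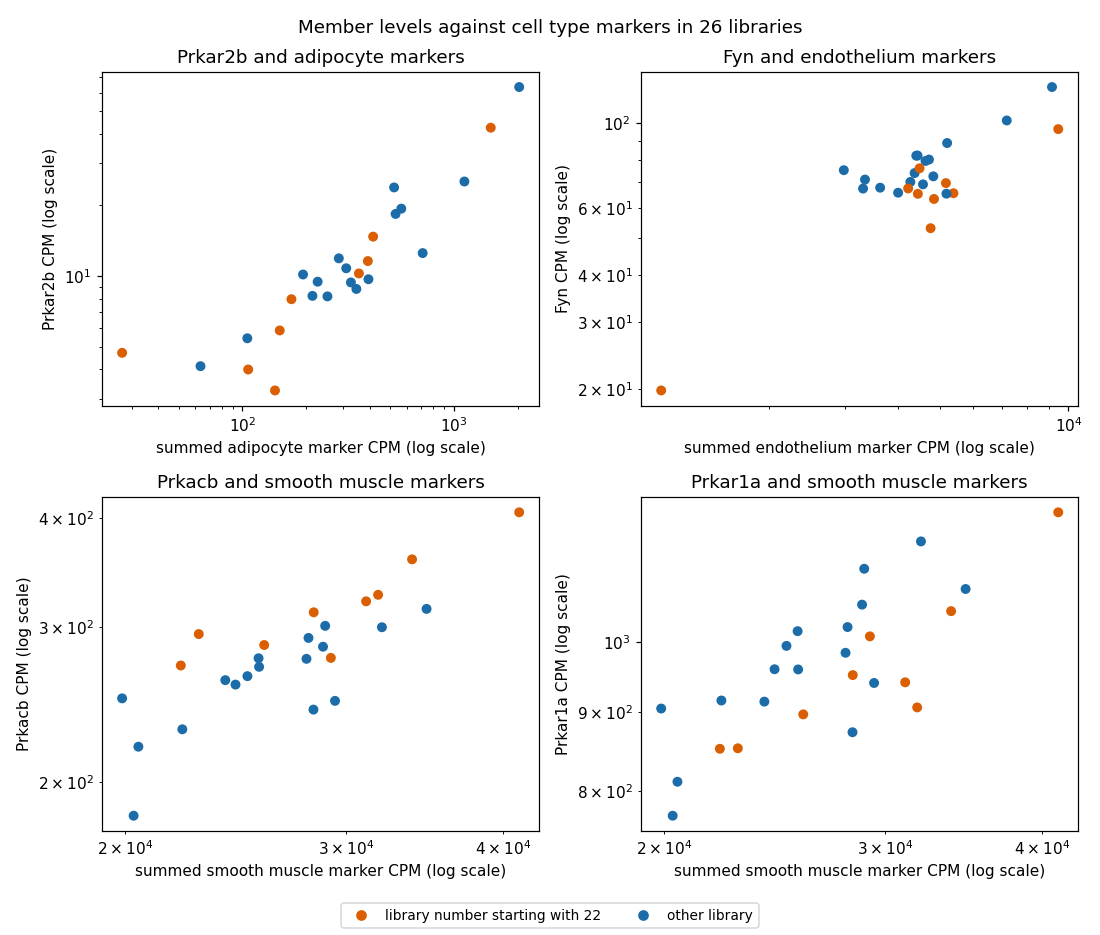
CPM of 4 genes against summed CPM of cell type markers on log axes, with 1 point for each of 26 libraries coloured by library number. Prkar2b rises with adipocyte markers and Prkacb and Prkar1a with smooth muscle markers in both sets, while the Fyn panel is stretched by S205A control 1 at the lower left and Y308F control 1 and S205A control 2 at the upper right.

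The genes most alike in pattern were found from log2 CPM with group and series means removed, over 26 libraries and 13384 genes, as a description with no test. For Prkar2b they were Agpat9 (r = 0.967) and Rgcc (r = 0.957). For Fyn they were Gata2 (r = 0.979) and Arhgef15 (r = 0.977), for Lyn Vat1 (r = 0.900) and Spns2 (r = 0.877), and for Yes1 Clcn3 (r = 0.888) and Arhgap29 (r = 0.842). Src was most like Akip1 (r = 0.843) and Tax1bp3 (r = 0.825), and Prkaca most like Slc25a4 (r = 0.924) and Atp5a1 (r = 0.913). Prkacb was nearest to Sorbs2 (r = 0.960) and Dtna (r = 0.955), and Prkar1a to Rap1a (r = 0.946) and Mylk (r = 0.939), the gene of myosin light chain kinase. Among the 8 genes themselves the most alike pair was Prkacb and Prkar1a (r = 0.915), followed by Fyn and Yes1 (r = 0.683).

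Promoters of the pair Prkacb and Prkar1a are shown because these genes moved together over the libraries. RefSeq promoter windows of 300 bases around a transcription start (GRCm38.p6) were found for 7 of the 8 genes, 16 windows in all, and 1 is printed for each of the pair. Capitals mark the half-site of the cyclic AMP response element, TGACG, and the GC box, GGGCGG, on either strand, so CGTCA and CCGCCC are the reverse strand forms and the full element TGACGTCA appears as 8 capitals in which both half-sites overlap.
Prkacb (chr3:146812897-146813196, minus strand): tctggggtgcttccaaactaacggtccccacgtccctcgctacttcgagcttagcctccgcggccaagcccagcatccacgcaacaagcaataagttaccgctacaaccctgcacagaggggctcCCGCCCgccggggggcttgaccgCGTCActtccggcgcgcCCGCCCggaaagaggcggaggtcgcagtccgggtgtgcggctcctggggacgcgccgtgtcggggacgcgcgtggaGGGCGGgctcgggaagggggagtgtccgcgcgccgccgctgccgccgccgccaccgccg
Prkar1a (chr11:109650699-109650998, plus strand): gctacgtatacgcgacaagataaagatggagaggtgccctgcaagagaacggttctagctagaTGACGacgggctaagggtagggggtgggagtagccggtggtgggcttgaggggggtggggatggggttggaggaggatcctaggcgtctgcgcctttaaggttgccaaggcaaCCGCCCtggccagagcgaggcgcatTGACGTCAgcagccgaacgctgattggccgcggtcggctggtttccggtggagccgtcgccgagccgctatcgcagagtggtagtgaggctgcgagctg
The half-site was present in 5 of the 16 windows, of the PKA genes Prkaca, Prkacb and Prkar1a, and in 20.8% of all 32851 promoter windows. Both printed windows are among the 5, while Prkacb and Prkar1a each also have windows without a half-site. The 5 include overlapping windows of Prkar1a that hold the same sites. The full element was found for Prkar1a alone, in 2 of its overlapping windows, and in 1.79% of all windows. A GC box was present in 10 of the 16 windows, with at least 1 for each of the 7 genes, and in 35.7% of all windows. The letters TATAAA occurred in 1 of the 16 windows, of Prkacb, against 13.6% of all. Such matches describe letters and are not shown to be bound.

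All 8 are protein-coding genes, located on GRCm39 as follows. Src spans chr2:157260355-157313782, Fyn chr10:39244851-39442227, Yes1 chr5:32768101-32845256, Lyn chr4:3678061-3813122, Prkaca chr8:84699575-84723091 and Prkar1a chr11:109513434-109560633 on the plus strand. Prkacb spans chr3:146435311-146518793 and Prkar2b chr12:32008448-32111363 on the minus strand. Exons of other annotated genes cover 0 exonic bases of Prkar2b and up to 1165 of the 13620 exonic bases of Yes1, by 2 genes on the opposite strand. Whether counting used the strand is not stated, so reads of Yes1 and these partners cannot be told apart there.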

How the data were processed

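Mesenteric artery RNA was sequenced in 26 libraries. Reads were mapped to GRCm39 with STAR 2.7.9a and counted with featureCounts, per the submitters' processing notes. The annotation release and strand setting are not given in the sources used here. The authors deposited whole-number counts per gene. They also deposited a normalised signal, which equals the counts divided by DESeq2 size factors when tested on the values. The authors' deposited tables of each comparison hold a mean signal, a log2 fold change with its error, a test score and p-values, from DESeq2 1.46.0 per the submitters' processing notes.

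Counts were tested with edgeR 4.0.16 (quasi-likelihood, TMM, filterByExpr, robust) in R 4.3.3 over all genes of each comparison. P-values were adjusted by Benjamini-Hochberg, with a threshold of 0.05. CPM used TMM library sizes over 26 libraries, and lengths and positions came from GENCODE, matched for 56310 of 57010 gene identifiers. The standard error was computed as the fold change over the square root of F. Counts of replicates differed beyond sampling noise in all 30 pairs, with 13.9 to 147 for the chi-square divided by its degrees of freedom. Nothing says that libraries come from separate animals, so p-values measure the spread between these libraries, which may be technical.

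The 8 genes and all lists were chosen with earlier results of these data known. All 8 were named in every comparison. From each list up to 5 genes past the threshold were named by smallest p, and for each of the 8 the 2 genes most alike in pattern. Alternatives were DESeq2 1.42.0, limma 3.58.1 voom with quality weights, DESeq2 size factors inside the edgeR fit, dropping the low-count filter, fitting all 8 groups jointly, a library series term, series-matched controls, a replicate block and each library left out. The edgeR fit of mutants against controls was run on simulated data for the KO and S205A comparisons only, and its outcome is not given here. The other steps were not simulated. All value columns were mapped to samples.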

Additional observations from a re-analysis of the deposited data

Results flagged for a closer look

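Lyn in the S205A controls had 1 library far below the others. S205A control 1 was at 3.11 CPM, against 8.82 to 9.22 CPM in the other 3. The same library had the lowest endothelial marker sum of all 26, 1119 CPM, and a leukocyte marker sum of 7.83 CPM against 13.9 to 26.4 CPM in the other controls. Prkacb in the S205A mutants had 1 library far above the others, mutant 4 at 359 CPM against 277 to 286 CPM. Its smooth muscle marker sum was 33864 CPM against 25812 to 29173 CPM in the other mutants. The part of these markers was not tested, and chance alone sets apart about 1 in 20 such groups of 4 libraries.

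Yes1 differed between mutations by the interaction test. The KO difference minus the Y198F difference was 0.88 and the Y198F difference minus the Y308F difference was -0.79. All Y198F mutants belong to the 22 series and no library of the KO and Y308F comparisons does, so mutation and series cannot be told apart in either value.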

How the results depend on the processing

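With 3 or 4 libraries a group, the median standard error of the 8 log2 differences was 0.14 in KO, 0.13 in Y198F, 0.25 in S205A and 0.19 in Y308F, which bounds what could be detected. Intervals cover the spread between libraries as sequenced. Over the planned and added alternatives no value past the threshold changed direction while staying past it. Each change of direction below concerns a difference that missed the threshold, except Yes1 in Y198F. The causes were not tested.

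Genes called in KO, 5 by edgeR, numbered 117 with DESeq2, 10 with limma voom, 243 with no filter and 18 with the replicate block. In S205A DESeq2 called 47 genes, and in Y308F the fit with no filter called 7. In Y198F, with 2411 genes and 1 of the 8 called, all 8 groups in one fit gave 922 genes and 0 of the 8. The series term gave 0 genes and 0 of the 8, and the S205A controls of the 22 series gave 0 genes and 0 of the 8. The test of series gave 902 genes and 0 of the 8 in the S205A line only, against 2189 and 1. The test among 8 groups, with 8 genes called, gave 1328 genes without the series term, added after seeing the data, and 0 of the 8 again.

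With the series term, Y198F differences turned to -0.21 for Src, 0.15 for Yes1, -0.11 for Prkaca and -0.0018 for Prkacb, and the Y308F difference of Prkaca to -0.0093. Against the S205A controls of the 22 series, Y198F differences turned to 0.028 for Fyn, 0.058 for Yes1, 0.29 for Lyn, -0.023 for Prkaca and -0.12 for Prkacb. With all 8 groups the KO differences were -0.0075 for Fyn and -0.0017 for Prkacb, and that of Prkaca in Y308F was -0.0093. In limma voom Prkaca was -0.048 in S205A and -0.026 in Y308F, and Fyn 0.098 in Y308F. Within the 22 series the S205A differences were -0.096 for Prkaca, -0.0053 for Prkar1a and 0.36 for Prkar2b.

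Replicate numbers did not pair the samples. Over 13 pairs of same-numbered libraries the correlation of deviations ran from -0.29 to 0.22, and 5 correlated best with their own number. With the replicate block, Prkar1a in KO was 0.0026 and Prkar2b in Y308F 0.14, Yes1 in Y198F stayed past the threshold at -0.51 (adjusted p = 0.0467 by edgeR), and the call of none of the other 7 genes changed.

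With each library left out in turn, KO called 1 (without wild-type library 1 or any KO library) to 5 genes, with 3 without wild-type library 2. Y198F called 908 (without Y198F control 3) to 2128 genes, with 1546 without Y198F control 1, and 0 to 1 of the 8, S205A 0 to 1 genes and Y308F 0 to 1 genes. The series test called 282 (without S205A control 4) to 2404 genes, with 932 without S205A mutant 1, and 0 to 1 of the 8. In KO the range was -0.088 to 0.068 for Fyn, -0.034 to 0.066 for Prkaca, -0.091 to 0.18 for Prkacb, -0.11 to 0.11 for Prkar1a and -1.65 to 0.34 for Prkar2b. Prkar2b ranged from -0.42 to 1.53 in Y198F. In S205A it was -0.26 to 0.26 for Fyn, -0.036 to 0.35 for Yes1, -0.047 to 0.36 for Lyn, -0.084 to 0.13 for Prkaca, -0.19 to 0.025 for Prkacb, -0.075 to 0.11 for Prkar1a and -0.62 to 0.37 for Prkar2b. In Y308F it was -0.23 to 0.31 for Fyn, -0.091 to 0.10 for Prkaca, -0.062 to 0.29 for Prkacb, -0.062 to 0.25 for Prkar1a and -0.56 to 0.61 for Prkar2b. Between series it was -0.41 to 0.42 for Lyn and -0.067 to 0.40 for Prkaca. In the fits where S205A control 4 or S205A mutant 1 was left out, the series contrast rested on 1 remaining library outside the series.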

Other observations

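The authors' deposited tables give their own values for the 8 genes, none of them with an adjusted p under 0.05. For Yes1 the authors' deposited table of KO gives a log2 fold change of 0.36 (authors' adjusted p = 0.705), and that of Y308F gives 0.28 (authors' adjusted p = 1.00). In the authors' deposited table named for Y198F, Yes1 is at -0.14 (authors' adjusted p = 0.952). The fold changes of that authors' deposited table equal those of Y198F against the S205A controls in a refit of the deposited counts, with a largest difference of 0.00016 on the log2 scale, while against the labelled Y198F controls they differ by up to 7.51. Its values for the 8 genes are therefore not those of the labelled Y198F comparison. Over all genes the authors' deposited tables hold 20 genes with an adjusted p under 0.05 in KO, 3 in Y198F, 96 in S205A and 0 in Y308F.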
